A study of Mus musculus with 13 samples.

Results

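The 5 genes described here encode subunits of the phagocyte NADPH oxidase and were chosen by symbol: Cybb, Cyba, Ncf1, Ncf4 and Rac2. All 5 were found in the deposited count and TPM tables, among 24490 genes with at least 1 read. They were measured by RNA sequencing of whole brain hemispheres. The 7 mice were C57BL/6 males, wild type and 12 to 16 weeks old. Animals 1, 2, 3 and 5 had received a controlled cortical impact (CCI), a surgical model of traumatic brain injury in which the exposed cortex is struck. Animals 4, 6 and 8 had received a sham operation. Tissue was taken on day 4 after surgery, and no other treatment or allele is named in the labels. The groups were CCI ipsilateral (n = 4), sham ipsilateral (n = 2, animals 4 and 6), CCI contralateral (n = 4) and sham contralateral (n = 3), 13 libraries in all. In the sample names every ipsilateral library carries RH and every contralateral one LH, so side of surgery and right or left hemisphere cannot be told apart.

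The phagocyte oxidase, built around NOX2, transfers electrons from NADPH across a membrane to oxygen and so makes superoxide, which phagocytes use against microbes. Its membrane part is flavocytochrome b558, a pair of the catalytic subunit gp91phox (Cybb) and the stabilising subunit p22phox (Cyba). On activation the cytosolic subunits p47phox (Ncf1, the organiser) and p40phox (Ncf4, which binds phosphatidylinositol 3-phosphate) join it together with the GTPase Rac2 or Rac1. In brain the complex is known mainly from microglia and from infiltrating macrophages and neutrophils.

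Positions are those of GENCODE M21 on GRCm38. Cybb (ENSMUSG00000015340.8) lies on chromosome X from 9435252 to 9487771, Cyba (ENSMUSG00000006519.10) on chromosome 8 from 122424776 to 122432930 and Ncf1 (ENSMUSG00000015950.11) on chromosome 5 from 134220053 to 134229625, all on the minus strand. Ncf4 (ENSMUSG00000071715.9, plus strand) and Rac2 (ENSMUSG00000033220.6, minus strand) are both on chromosome 15, from 78244801 to 78262580 and from 78559167 to 78572783, with a gap of 296.6 kb between them. Counts cover the exons of each gene. Gtf2ird2 on the opposite strand shares 408 of the 3663 exon bases of Ncf1, so reads of both could be mixed if strand was ignored in counting. Gtf2ird2 itself had 119 to 170 counts in CCI ipsilateral libraries, 103 to 112 in sham ipsilateral, 97 to 151 in CCI contralateral and 115 to 126 in sham contralateral libraries.

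Promoter windows in RefSeq sequence of GRCm38.p6 were at hand for 3 of the 5 members, and these 3 are shown. All 5 genes were higher on the injured side. Each runs 5′ to 3′ on the minus strand, from 250 bases before to 50 bases after the RefSeq transcription start. Capitals mark matches, on either strand, to 4 motifs of factors known in myeloid and inflammatory genes: GAGGAA (PU.1 core), GGAANNGAA (PU.1 with IRF), GAAANNGAA (ISRE-like) and TGANTCA (AP-1). The Cybb window is chrX:9469275-9469574, the Cyba window chr8:122432891-122433190 and the Ncf1 window chr5:134229576-134229875.
Cybb: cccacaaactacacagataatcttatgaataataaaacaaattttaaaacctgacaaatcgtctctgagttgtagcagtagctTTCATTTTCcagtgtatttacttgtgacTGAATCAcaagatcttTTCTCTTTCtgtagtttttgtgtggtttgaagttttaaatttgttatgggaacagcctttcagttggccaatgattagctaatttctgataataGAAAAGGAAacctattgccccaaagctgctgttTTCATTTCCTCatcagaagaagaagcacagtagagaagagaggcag
Cyba: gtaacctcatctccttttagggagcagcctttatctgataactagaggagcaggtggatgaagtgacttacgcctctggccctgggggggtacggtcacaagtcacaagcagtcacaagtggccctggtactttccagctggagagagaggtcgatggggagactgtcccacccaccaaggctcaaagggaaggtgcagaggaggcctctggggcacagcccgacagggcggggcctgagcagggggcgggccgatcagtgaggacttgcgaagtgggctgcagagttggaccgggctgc
Ncf1: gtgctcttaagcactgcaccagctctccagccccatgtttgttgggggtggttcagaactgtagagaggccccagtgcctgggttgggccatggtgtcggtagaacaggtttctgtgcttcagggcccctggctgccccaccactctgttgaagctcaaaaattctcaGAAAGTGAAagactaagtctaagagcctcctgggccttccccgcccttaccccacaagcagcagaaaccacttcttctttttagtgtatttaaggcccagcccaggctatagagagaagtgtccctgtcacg
Counted from the first base printed, the Cybb window held an AP-1 match at bases 112 to 118 and ISRE-like matches at bases 84 to 92, 128 to 136 and 222 to 230. It also held a PU.1 core match at bases 260 to 265, which overlaps a PU.1 with IRF match at bases 255 to 263. The Ncf1 window held an ISRE-like match at bases 169 to 177, and the Cyba window held none of the 4 motifs. Of 32851 mouse promoter windows of the same length, 28.3% held GAGGAA, 8.24% GGAANNGAA, 8.56% GAAANNGAA and 7.81% TGANTCA. A match is a run of letters and not a measured binding site. No window of Ncf4 or Rac2 was at hand, so their promoters were not examined.

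Library totals were 7126708 to 7955076 counts in CCI ipsilateral, 5908022 to 6874956 in sham ipsilateral, 5604856 to 7444568 in CCI contralateral and 6578614 to 6855548 in sham contralateral libraries. As a check of the tissue label, 5 neuron markers summed to 3558 to 5044 TPM over the libraries. On the first principal component the 4 CCI ipsilateral libraries lay apart from the other 9. Levels per library are given as CPM, which are read counts scaled for library size with TMM factors. Fold changes and adjusted p-values are from edgeR's quasi-likelihood test over 14875 genes, and a gene was called at an adjusted p under 0.05.

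The first comparison was CCI with sham in the ipsilateral hemisphere, the side of surgery. All 5 oxidase genes were higher in CCI, against 12.5% of all genes tested that were called higher. The fold changes ran from 4.41 for Ncf1 to 14.6 for Cybb, and the median log2 fold change was 3.00, against 0.0041 over all genes. Ncf4 passed the filter on low counts only through its CCI ipsilateral libraries, so the number of members tested depends on that group. In whole tissue a change in the number of cells that carry a transcript and a change in RNA per cell cannot be told apart.

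Cybb, the catalytic subunit, had 5.63, 5.43, 14.2 and 8.60 CPM ipsilaterally in CCI animals 1, 2, 3 and 5, against 0.517 and 0.604 CPM in sham animals 4 and 6. The CCI value of animal 3 was the highest, and the lowest CCI value lay well above both sham values. The raw counts behind these values were 42, 44, 104 and 69 in CCI, against 3 and 4 in sham. Cybb rose 14.6-fold (log2 fold change 3.86, SE 0.59, adjusted p = 0.000112 by edgeR), and with so few sham reads the size of this fold is imprecise. Only 0.477% of all genes had a larger log2 fold change.

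Cyba, the membrane partner that stabilises gp91phox, had 18.2, 16.9, 21.9 and 21.4 CPM in CCI ipsilateral libraries, against 2.76 and 1.66 CPM in sham ipsilateral libraries. The 4 CCI values were close to each other and did not overlap the sham values. Cyba rose 8.94-fold (log2 fold change 3.16, SE 0.26, adjusted p = 3.11e-10 by edgeR).

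Ncf1, the organiser that carries the signal of phosphorylation to the membrane part, had 20.7, 13.9, 24.5 and 19.4 CPM in CCI ipsilateral libraries, against 4.82 and 4.08 CPM in sham ipsilateral libraries. The groups did not overlap. Ncf1 rose 4.41-fold (log2 fold change 2.14, SE 0.22, adjusted p = 2.43e-08 by edgeR), the smallest of the 5 fold changes, and the gene had the highest sham level in CPM.

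Ncf4, the p40phox subunit, had 2.95, 1.23, 2.60 and 2.87 CPM in CCI ipsilateral libraries, against 0.517 and 0.302 CPM in sham ipsilateral libraries. It had the fewest reads of the 5 genes, 22, 10, 19 and 23 in CCI and 3 and 2 in sham. Animal 2 was low among the CCI animals, but its value stayed above both sham values. Ncf4 rose 5.75-fold (log2 fold change 2.52, SE 0.55, adjusted p = 0.000883 by edgeR). Without the sham library of animal 6 the adjusted p was 0.0505 and the call was lost.

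Rac2, the GTPase restricted to blood cells, had 10.2, 6.41, 11.4 and 11.3 CPM in CCI ipsilateral libraries, against 1.38 and 1.06 CPM in sham ipsilateral libraries. The groups did not overlap. Rac2 rose 8.01-fold (log2 fold change 3.00, SE 0.33, adjusted p = 5.79e-08 by edgeR). In CCI ipsilateral libraries, animal 2 had the lowest value for each of the 5 oxidase genes. The same animal had the lowest summed TPM of 6 myeloid genes, 372 against 471 to 576 in the other CCI ipsilateral libraries. Every CCI ipsilateral library lay above every sham ipsilateral library for all 5 members, and 21.8% of all genes showed this.

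**Figure D1:**
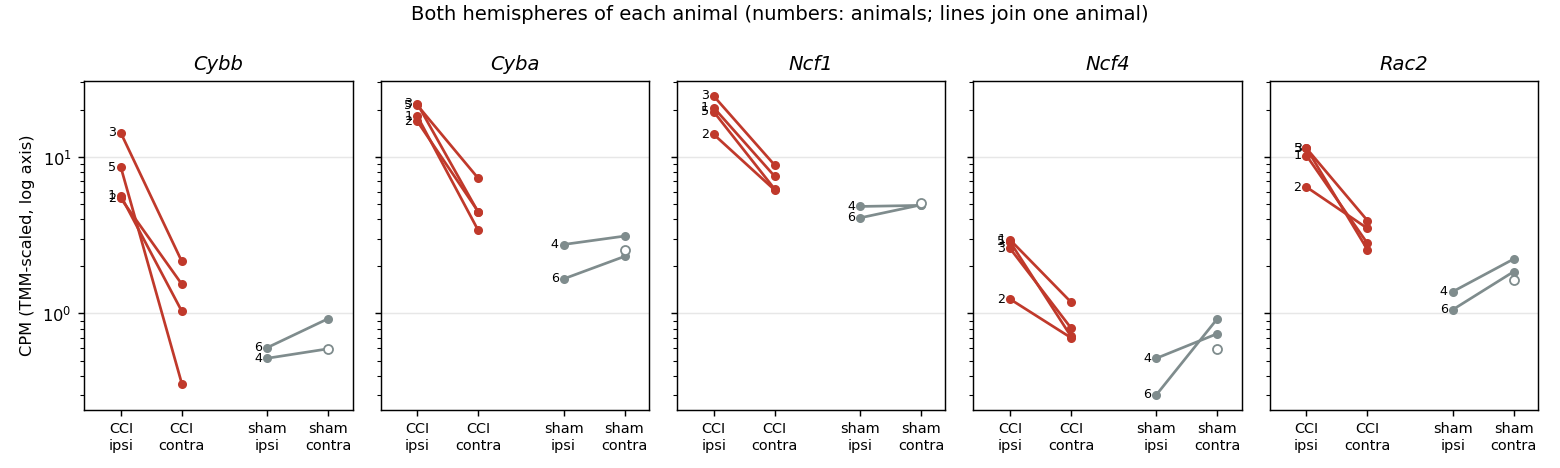
CPM (log axis) of the 5 oxidase genes in all 13 libraries. Red lines join the ipsilateral (left) and contralateral (right) hemispheres of the 4 CCI animals, grey lines those of sham animals 4 and 6, and the open circle is sham animal 8, which has no ipsilateral library. Every red line falls to the right, by 1.77-fold to 24.1-fold, and the grey lines lie low and rise to the right.

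The second comparison was CCI with sham in the contralateral hemisphere, away from the impact. None of the 5 oxidase genes was called by edgeR, against 0.0941% of all genes called in either direction, 14 genes. The fitted fold changes were above 1 for all 5, with a median log2 fold change of 0.73, against -0.0010 over all genes. At an unadjusted p under 0.05 there were 3 members by edgeR, Cyba, Ncf1 and Rac2, against 1021 of all genes, 6.86%. DESeq2 also called 0 members, with 3 at that unadjusted level, and limma voom 0, with 2.

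Cyba had 3.39, 4.47, 4.43 and 7.30 CPM in the CCI contralateral libraries of animals 1, 2, 3 and 5, against 3.12, 2.31 and 2.53 CPM in the sham contralateral libraries of animals 4, 6 and 8. Every CCI value was above every sham value, but the margin was narrow. The log2 fold change was 0.85 ± 0.25 SE (unadjusted p = 0.00193, edgeR adjusted p = 0.365).

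Ncf1 had 7.52, 6.15, 8.86 and 6.23 CPM in CCI contralateral libraries, against 4.90, 4.93 and 5.05 CPM in sham contralateral libraries. The sham values were nearly equal and all lay below the CCI values. The log2 fold change was 0.54 ± 0.21 SE (unadjusted p = 0.0132, edgeR adjusted p = 0.557).

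Rac2 had 2.80, 3.49, 2.55 and 3.92 CPM in CCI contralateral libraries, against 2.23, 1.85 and 1.64 CPM in sham contralateral libraries, again without overlap. Its log2 fold change was 0.73 ± 0.29 SE (unadjusted p = 0.0172, edgeR adjusted p = 0.591). These 3 of 5 members lay wholly above sham, and 4.00% of all genes did so.

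Cybb and Ncf4 overlapped between the groups. Cybb had 1.03, 1.54, 2.15 and 0.356 CPM in CCI contralateral libraries, against 0.594, 0.925 and 0.595 CPM in sham contralateral libraries, and the library of CCI animal 5, with 2 reads, was the lowest of all 7. Its log2 fold change was 0.89, SE 0.62 (adjusted p = 0.855 by edgeR). Ncf4 had 1.18, 0.698, 0.806 and 0.712 CPM in CCI contralateral libraries, against 0.742, 0.925 and 0.595 CPM in sham contralateral libraries, with a log2 fold change of 0.17, SE 0.48 (adjusted p = 0.983 by edgeR). At 4 to 8 reads per CCI library and 4 to 6 per sham library, a difference of this size in Ncf4 was not detectable.

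The authors' deposited table also called none of the members in the contralateral hemisphere, with log2 estimates of 1.15 for Cybb, 0.69 for Cyba, 0.78 for Ncf1, 0.45 for Ncf4 and 0.78 for Rac2. In the authors' deposited table the adjusted p-values there were 0.464, 0.433, 0.158, 0.848 and 0.367, in that order of genes. For the ipsilateral hemisphere the authors' deposited table lists log2 estimates of 3.84 for Cybb, 2.92 for Cyba, 2.22 for Ncf1, 2.30 for Ncf4 and 2.33 for Rac2. The authors' deposited table and the fit described here differed most for Rac2, 2.33 against 3.00. The headers of the authors' comparisons name time beside treatment and hemisphere, a term that the fit described here did not hold.

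The third comparison set the ipsilateral against the contralateral hemisphere of the same CCI animals. All 5 oxidase genes were higher on the injured side, against 12.8% of all genes called higher. All 5 were also higher in every ipsilateral than in every contralateral CCI library, which held for 12.9% of all genes. This comparison uses the same CCI ipsilateral libraries as the first and is not a separate sample of injured tissue. Ncf4 was again among the genes tested only through those libraries. With only the groups compared, 4 members were tested and all 4 were called higher.

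Cybb was 6.32-fold higher (log2 fold change 2.66, SE 0.37, adjusted p = 4.57e-05 by edgeR), with ratios of ipsilateral to contralateral CPM of 5.46, 3.53, 6.62 and 24.1 in animals 1, 2, 3 and 5. The ratio of animal 5 stood apart and rests on the 2 contralateral reads. Cyba was 4.06-fold higher (log2 fold change 2.02, SE 0.17, adjusted p = 3.70e-10 by edgeR), with ratios of 5.38, 3.78, 4.94 and 2.94. Ncf1 was 2.70-fold higher (log2 fold change 1.43, SE 0.15, adjusted p = 4.47e-08 by edgeR), with the most even ratios, 2.75, 2.27, 2.76 and 3.12.

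Ncf4 was 2.78-fold higher (log2 fold change 1.48, SE 0.35, adjusted p = 0.00265 by edgeR), with ratios of 2.50, 1.77, 3.23 and 4.02. Rac2 was 3.09-fold higher (log2 fold change 1.63, SE 0.21, adjusted p = 6.99e-07 by edgeR), with ratios of 3.64, 1.84, 4.45 and 2.89. Animal 2 had the lowest ratio for 4 of the 5 genes, all but Cyba.

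The fourth comparison set the ipsilateral against the contralateral hemisphere in sham animals. No member was called by edgeR, against 0.00672% of all genes in either direction, which is 1 gene. None reached an unadjusted p under 0.05 in edgeR, DESeq2 or limma voom, against 6.10% of all genes in edgeR, and DESeq2 and limma voom called none. The log2 fold changes were -0.31 ± 0.90 SE for Cybb, -0.28 ± 0.35 for Cyba, -0.16 ± 0.27 for Ncf1, -0.87 ± 0.69 for Ncf4 and -0.65 ± 0.42 for Rac2. Every ipsilateral value was below every contralateral one for Ncf1, Ncf4 and Rac2, 3 of 5 members, and 11.0% of all genes showed this. In animals 4 and 6 the ratio of ipsilateral to contralateral CPM was below 1 for all 5 genes, from 0.326 for Ncf4 in animal 6 to 0.984 for Ncf1 in animal 4. In the authors' deposited table the sham log2 estimates were 0.013 for Cybb, -0.22 for Cyba, -0.002 for Ncf1, -0.35 for Ncf4 and 0.077 for Rac2. The authors' deposited table and the edgeR fit thus had the same sign for 3 of the 5 genes and opposite signs for Cybb and Rac2.

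**Figure D2:**
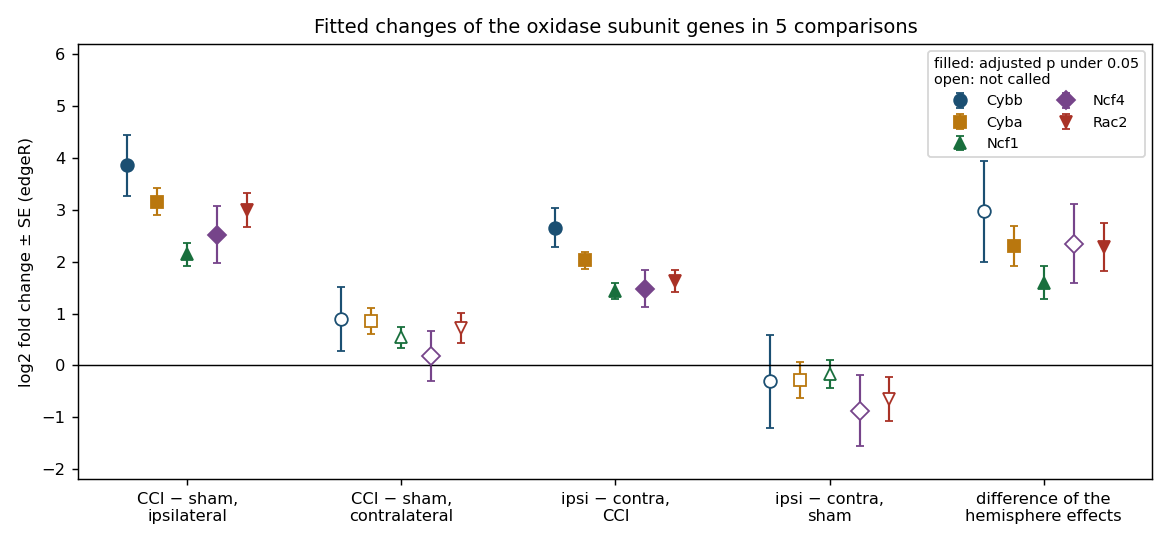
Fitted log2 fold changes of the 5 oxidase genes with their SE in the 5 comparisons, filled where edgeR's adjusted p was under 0.05 and open otherwise. All 5 are filled and between 1.43 and 3.86 in the 2 comparisons of injured tissue, all open in the contralateral and sham comparisons, and 3 of 5 filled for the difference between the hemisphere effects.

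The fifth comparison asked whether the hemisphere difference in CCI animals exceeded that in sham animals. It did for 3 of 5 members, Cyba, Ncf1 and Rac2, against 4.84% of all genes called in that direction. The difference of the log2 fold changes was 2.31 ± 0.39 SE for Cyba (edgeR adjusted p = 0.000402), 1.60 ± 0.31 for Ncf1 (edgeR adjusted p = 0.00158) and 2.28 ± 0.46 for Rac2 (edgeR adjusted p = 0.00225). It was 2.97 ± 0.98 for Cybb (edgeR adjusted p = 0.0745) and 2.35 ± 0.77 for Ncf4 (edgeR adjusted p = 0.0558), which missed the threshold with the largest estimates and the largest errors. With the animal as a fixed replicate block, Cybb passed (difference 3.10, edgeR adjusted p = 0.0141). Cybb also passed with DESeq2 (adjusted p = 0.0215), but not with limma voom (adjusted p = 0.182), with RLE scaling (edgeR adjusted p = 0.0723) or with the animal as a random block (adjusted p = 0.128). Ncf4 passed without the CCI ipsilateral library of animal 2 (edgeR adjusted p = 0.0192), but not with DESeq2 (adjusted p = 0.168). Over all alternatives run, the adjusted p ran from 0.000845 to 0.239 for Cybb and from 0.0192 to 0.272 for Ncf4.

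Levels of different genes were compared in TPM, which is scaled for transcript length. In CCI ipsilateral libraries Cyba averaged 59.2 ± 7.79 TPM, Ncf1 16.3 ± 3.82, Rac2 7.40 ± 1.78, Ncf4 4.18 ± 1.5 and Cybb 4.09 ± 2.04 (SD, n = 4). In sham ipsilateral libraries the TPM means were 6.44 ± 2.34 for Cyba, 3.47 ± 0.549 for Ncf1, 0.885 ± 0.177 for Rac2, 1.02 ± 0.573 for Ncf4 and 0.630 ± 0.499 for Cybb (SD, n = 2). Cyba was first and Ncf1 second in all 13 libraries. The order Cyba, Ncf1, Rac2, Ncf4, Cybb held in 9 libraries, Rac2 and Ncf4 changed places in 2 sham libraries, and Ncf4 and Cybb did so in 2 CCI ipsilateral libraries. Neighbours among the lower 3 thus lay within the spread of the libraries in several groups.

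In CCI contralateral libraries the TPM means were 14.3 ± 4.85 for Cyba, 5.93 ± 1.19 for Ncf1, 2.34 ± 0.477 for Rac2, 1.82 ± 0.377 for Ncf4 and 0.702 ± 0.368 for Cybb (SD, n = 4). In sham contralateral libraries they were 7.65 ± 1.24 for Cyba, 3.98 ± 0.0378 for Ncf1, 1.37 ± 0.226 for Rac2, 1.15 ± 0.214 for Ncf4 and 0.509 ± 0.285 for Cybb (SD, n = 3). Cyba made up 65.3% ± 3.93 of the summed TPM of the 5 genes in CCI ipsilateral libraries, against 51.5% ± 1.70 in sham ipsilateral libraries. The Ncf1 share was 17.8% ± 1.84 in CCI ipsilateral libraries, against 28.8% ± 5.17 in sham ipsilateral libraries. In CCI contralateral libraries the Cyba share ran from 46.6% to 67.2% and the Ncf1 share from 15.7% to 31.4%. Both ranges overlapped those of CCI ipsilateral libraries, 62.3% to 70.7% for Cyba and 16.0% to 19.4% for Ncf1. The TPM of Cybb did not follow its reads at low depth: in sham ipsilateral libraries 3 reads gave 0.983 TPM and 4 reads 0.277 TPM.

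Cybb and Cyba encode the paired subunits of the flavocytochrome, and their log2 ratio of TPM was followed across groups. It averaged -3.97 ± 0.49 in CCI ipsilateral, -3.57 ± 0.75 in sham ipsilateral, -4.58 ± 1.63 in CCI contralateral and -4.05 ± 0.96 in sham contralateral libraries. CCI ipsilateral minus CCI contralateral was 0.61, less than the spread in the contralateral group (exact two-sided permutation test over 70 arrangements, p = 0.714, the smallest possible being 0.0286). Without the CCI contralateral library of animal 5, in which the ratio was -7.01, the difference was -0.20. No change in the balance of these 2 transcripts was detectable at this depth.

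Markers of myeloid cells moved with the oxidase genes. The summed TPM of 6 myeloid reference genes (Csf1r, Aif1, Itgam, Ptprc, Tyrobp and Laptm5) was 372 to 576 in CCI ipsilateral, 120.5 to 129.6 in sham ipsilateral, 177 to 227 in CCI contralateral and 109 to 175 in sham contralateral libraries. All 6 rose in the ipsilateral hemisphere of CCI against sham animals, with a median log2 fold change of 1.78. All 10 microglia markers rose as well, with a median of 0.83, and so did all 5 tested of 8 markers of monocyte-derived macrophages, with a median of 4.36. The summed TPM of those 8 was 539 to 949 in CCI ipsilateral libraries, with none of them at 0, against 15.00 to 15.2 in sham ipsilateral libraries, with 3 or 4 of them at 0. Ly6c2 and Arg1 had no read in either sham ipsilateral library, against 31 and 275 reads summed over the CCI ipsilateral libraries. In CCI contralateral libraries the summed TPM of the 8 was 27.3 to 52.6, and in sham contralateral libraries 14.8 to 22.0. Most of this sum was a single gene, Lyz2. Its mean TPM was 672 in CCI ipsilateral, 13.5 in sham ipsilateral, 33.9 in CCI contralateral and 16.4 in sham contralateral libraries. Markers of other cells were higher in CCI ipsilateral than in sham ipsilateral libraries too. Of 4 astrocyte markers 3 rose, Gfap (log2 fold change 3.01), Aqp4 (1.31) and Aldh1l1 (0.60), with a summed TPM of 1471 to 2373 in CCI ipsilateral, 565 to 574 in sham ipsilateral, 827 to 981 in CCI contralateral and 538 to 641 in sham contralateral libraries. Of 5 endothelial markers 3 rose, Vwf (1.26), Cdh5 (0.74) and Pecam1 (0.48), with a summed TPM of 129 to 167 in CCI ipsilateral, 103 to 124 in sham ipsilateral, 82.6 to 111 in CCI contralateral and 99.1 to 128 in sham contralateral libraries. The part of all these markers in the oxidase results was not tested.

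Neutrophils carry the same oxidase, and their markers were examined too. Between CCI and sham ipsilateral libraries none of the 3 tested of 9 neutrophil markers in the table was called, S100a8 with a log2 fold change of 1.49 (edgeR adjusted p = 0.476), S100a9 with 0.15 (edgeR adjusted p = 0.950) and Mmp9 with 0.75 (edgeR adjusted p = 0.220). Between the hemispheres of CCI animals 1 of the 3 was called: Mmp9, a gelatinase of neutrophil granules that other cells also make, was 2.51-fold higher on the injured side (log2 fold change 1.33, SE 0.35, adjusted p = 0.00595 by edgeR). S100a8 had 0.05 (edgeR adjusted p = 0.974) and S100a9 -0.29 (edgeR adjusted p = 0.866) in that comparison. The summed TPM of the 9 was 12.0 to 22.5 in CCI ipsilateral, 10.2 to 12.6 in sham ipsilateral, 3.09 to 52.4 in CCI contralateral and 7.5 to 23.1 in sham contralateral libraries, so the groups overlapped widely between the hemispheres. From 1 to 4 of the 9 were at 0 in CCI ipsilateral libraries, against 3 or 4 in sham ipsilateral libraries. Camp and Elane, which encode neutrophil granule proteins, had 4 reads and 1 read summed over the CCI ipsilateral libraries, against 0 for both over the sham ipsilateral libraries. Over the CCI contralateral libraries they had 9 and 3 reads. Mean TPM of Ngp was 0.594 in CCI ipsilateral and 1.46 in sham ipsilateral libraries, and that of Ltf 0.110 and 0.752. Cxcr2 and Retnlg went the other way. Mean TPM of Cxcr2 was 0.337 in CCI ipsilateral and 0.063 in sham ipsilateral libraries, from 14 reads and 1 read in all. That of Retnlg was 0.712 and 0.271, from 6 reads and 1 read. The part of neutrophils in the oxidase results was not tested.

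The oxidase genes were also set against the 6 myeloid reference genes within each library. The log2 ratio of the summed TPM of the 5 members to that of the 6 reference genes was -2.39 ± 0.06 in CCI ipsilateral, -3.37 ± 0.42 in sham ipsilateral, -3.02 ± 0.22 in CCI contralateral and -3.17 ± 0.39 in sham contralateral libraries. Every CCI ipsilateral library, from -2.44 to -2.32, lay above every library of the other groups, the nearest being at -2.74. CCI ipsilateral minus CCI contralateral was 0.63, or 1.55-fold. It was 1.03 with Csf1r alone as the reference and 0.67 with Aif1 alone. The mean of the log2 ratios over the 5 members gave 0.58. These ratios are given without a test.

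The members did not share this difference evenly. CCI ipsilateral minus CCI contralateral was 1.48 for Cybb and 0.87 for Cyba, both higher in 4 of 4 animals. It was 0.42 for Rac2, higher in 3 of 4 animals, 0.22 for Ncf1, higher in 4 of 4, and -0.10 for Ncf4, higher in 1 of 4. The value of Cybb rests in part on the CCI contralateral library of animal 5, with its 2 reads. Without that library it was 0.85 for Cybb and 1.05 for Cyba, so the order of these genes turned round. Against sham the order was another: CCI ipsilateral minus sham ipsilateral was 1.33 for Cyba, 1.13 for Rac2, 0.93 for Cybb, 0.29 for Ncf1 and 0.16 for Ncf4. Rac2, a cytosolic GTPase, lay above Cybb there. The place of Cybb in that order is uncertain. Its ratio was -7.04 in sham ipsilateral animal 4, with 3 reads, and -8.76 in animal 6, with 4 reads. By edgeR on counts the log2 fold change against sham was larger for Cybb (3.86) than for Rac2 (3.00). These differences are a description of the libraries without a test.

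**Figure D3:**
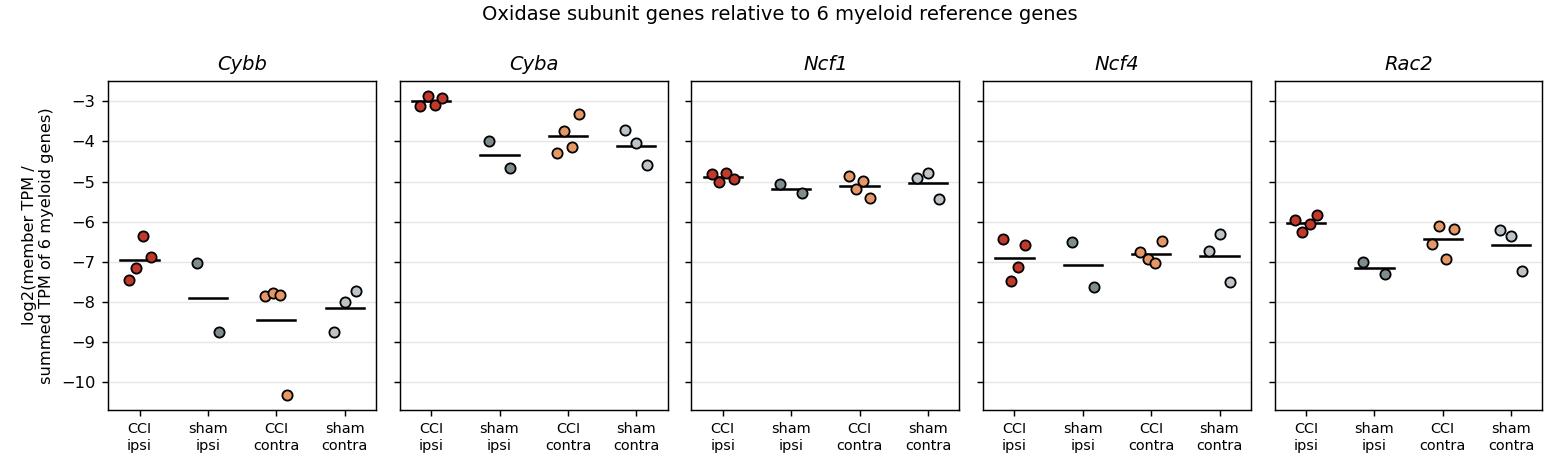
The log2 ratio of each oxidase gene's TPM to the summed TPM of 6 myeloid reference genes, 1 point per library with the group mean as a bar. Cyba lies at -3.12 to -2.87 in the 4 CCI ipsilateral libraries, above all other libraries, while Ncf4 overlaps in all 4 groups. For Cybb the CCI contralateral library of animal 5 lies far below the rest at -10.3.

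Genes that assist or regulate the oxidase formed a list of 14, of which 12 could be tested. In the ipsilateral hemisphere 7 of the 12 were higher in CCI and 2 lower, against 12.5% and 10.0% of all genes, with a median log2 fold change of 0.79. Vav1, an exchange factor that loads Rac with GTP, rose 6.40-fold (log2 fold change 2.68, SE 0.38, adjusted p = 1.27e-05 by edgeR), and Dock2, another Rac exchange factor of blood cells, rose 3.84-fold (1.94 ± 0.25, edgeR adjusted p = 2.00e-06). Hvcn1, the proton channel that balances the charge moved by the oxidase, rose 3.67-fold (edgeR adjusted p = 1.54e-05). Arhgdib, an inhibitor of GDP release that holds Rac in the cytosol, rose 2.62-fold (edgeR adjusted p = 1.18e-06).

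Nrros, a regulator known to bind gp91phox in mouse phagocytes, rose 2.56-fold (edgeR adjusted p = 1.51e-05), and Syk, a kinase downstream of immune receptors, rose 2.47-fold (edgeR adjusted p = 0.000139). Prex1, an exchange factor for Rac that neurons also express, rose 1.21-fold (edgeR adjusted p = 0.00997). The protein kinases C beta and delta phosphorylate p47phox, and their genes were lower: the log2 fold change was -0.45 ± 0.06 SE for Prkcb (edgeR adjusted p = 3.61e-06) and -0.68 ± 0.15 for Prkcd (edgeR adjusted p = 0.00695). Summed TPM of 5 neuron markers was 3558 to 4113 in CCI ipsilateral and 4758 to 5044 in sham ipsilateral libraries, and its part in these lower values was not tested. Rac1, the GTPase present in most cells, had a log2 fold change of 0.04 (edgeR adjusted p = 0.657), Cybc1, a chaperone of the flavocytochrome, 0.22 (edgeR adjusted p = 0.183) and Rap1a, a small GTPase found with the flavocytochrome, 0.18 (edgeR adjusted p = 0.155).

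The same list had 7 higher and 2 lower genes on the ipsilateral side of CCI animals, against 12.8% and 8.90% of all genes, and no gene called in the contralateral or sham comparisons. Of 9 other NADPH oxidase family genes only Noxo1 had enough reads for a test, and it was not called (log2 fold change 0.56, edgeR adjusted p = 0.478). Nox4 had 31 reads summed over the CCI ipsilateral libraries, 4 over the sham ipsilateral, 11 over the CCI contralateral and 7 over the sham contralateral libraries.

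Enzymes that remove superoxide and peroxide formed a list of 13, of which 12 were tested. In the ipsilateral hemisphere 7 were higher in CCI and 1 lower, against 12.5% and 10.0% of all genes, with a median log2 fold change of 0.31, a smaller value than for the oxidase genes. Prdx1, a peroxiredoxin, rose 1.63-fold (log2 fold change 0.71, SE 0.08, adjusted p = 4.71e-08 by edgeR), and Cat, encoding catalase, had a log2 fold change of 0.41 ± 0.09 (edgeR adjusted p = 0.000578). Gpx1, a glutathione peroxidase, had 0.45 ± 0.10 (edgeR adjusted p = 0.00139) and Prdx4 0.56 ± 0.17 (edgeR adjusted p = 0.0142). Gpx3, Prdx2 and the extracellular superoxide dismutase Sod3 were called higher too, while the mitochondrial Sod2 was lower by a log2 fold change of -0.21 (edgeR adjusted p = 0.0192). The cytosolic Sod1 had 0.07 (edgeR adjusted p = 0.471).

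Among 5 other oxidant enzymes 3 were tested and 1 was higher, against the same 12.5% of all genes. Nos2, the inducible nitric oxide synthase, rose 3.41-fold (log2 fold change 1.77, SE 0.54, adjusted p = 0.0174 by edgeR). Lpo, encoding lactoperoxidase, had a log2 fold change of 0.99 (edgeR adjusted p = 0.0526) and Xdh, encoding xanthine dehydrogenase, 0.64 (edgeR adjusted p = 0.217). Mpo, the myeloperoxidase of neutrophil granules, had 4 reads over the CCI ipsilateral libraries and 0 over the sham ipsilateral libraries. Over the CCI and sham contralateral libraries it had 6 and 4 reads.

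**Figure D4:**
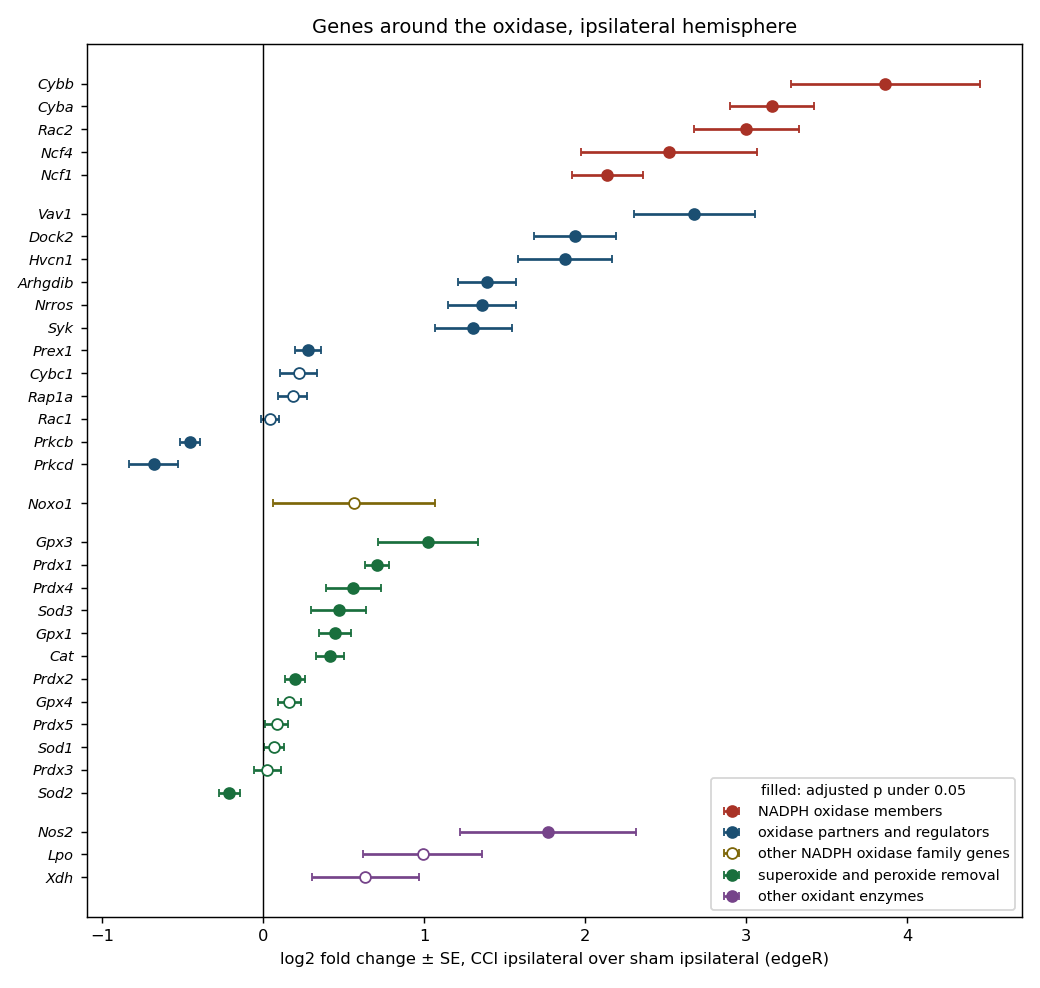
Log2 fold changes with SE between CCI and sham ipsilateral libraries for the oxidase genes and the tested genes of 4 related lists, filled where edgeR's adjusted p was under 0.05. The oxidase genes lie at 2.14 to 3.86, the highest partner (Vav1) at 2.68 and the enzymes that remove superoxide and peroxide at -0.21 to 1.02.

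For each member the 3 tested genes with the most similar pattern over the 13 libraries were found, by the root mean square difference of centred log2 CPM. For Cybb they were Acp5 (0.244), C3ar1 (0.309) and Clec4n (0.338), and for Cyba they were Cd68 (0.247), Slc11a1 (0.254) and Cd22 (0.277). The nearest to Ncf1 were Ctss (0.141), Plek (0.161) and Ctsz (0.163), the closest matches of any member. The nearest to Ncf4 were Mcm3 (0.209), Tagln2 (0.239) and Pros1 (0.256), and to Rac2 they were Fam46c (0.261), Fyb (0.263) and C1qc (0.267). Among the members themselves Rac2 was the 4th nearest of 14874 genes to Cyba, and Cyba the 13th nearest to Rac2. Ncf1 was the 18th nearest to Ncf4, the 27th to Rac2, the 77th to Cyba and the 89th to Cybb. The distance was 0.303 between Ncf1 and Ncf4 and 0.306 between Rac2 and Cyba. The remaining ranks were farther. Cybb ranked 12726 in nearness to Ncf4, 1440 to Ncf1, 657 to Rac2 and 295 to Cyba, and Cyba ranked 2652 to Ncf4. This distance depends on the size of a gene's range as well as its shape, and small counts add to it.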

How the data were processed

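Per the labels' protocols, mice were perfused, RNA was extracted with TRIzol, and stranded libraries were made from polyadenylated RNA. The tools and build in the submitters' processing notes are RSEM, bcl2fastq, DESeq2 and GRCm38 (mm10). No aligner, version or strand setting is given in the sources used here. The authors deposited expected counts from RSEM, not normalized, per the file headers, with 5604856 to 7955076 per library. The authors also deposited TPM, scaled for length and depth. The authors' deposited table of DESeq2 comparisons holds log2 estimates, a signed fold change as a score, and each p-value.

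Expected counts (9.59% not whole) were rounded. The main test was edgeR 4.0.16 (R 4.3.3): quasi-likelihood, robust, TMM, group-wise filter on low counts, 4 group means over 13 libraries that share 1 estimate of the spread, and Benjamini-Hochberg adjustment over 14875 genes. Each SE was obtained by dividing the size of the log2 fold change by the root of its F. The test was checked on simulated data. Alternatives were RLE scaling, no filter, DESeq2 1.42.0, limma 3.58.1 (voom, log2(TPM + 1), log2(TPM + 0.1), mean TPM of at least 1), only the groups compared, a replicate block and leaving out each library. Libraries with the same number come from the same animal, so hemispheres are paired. Their deviations from group means correlated at 0.0035 to 0.0882 over 6 pairs, against -0.0600 to 0.0268 between animals. CCI and sham share no animal.

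Members, lists, tests and motifs were chosen with earlier results of these data known. The genes named are the 5 members, the genes of the 4 related lists (at least the 4 with the smallest p in each), and the 3 nearest patterns per member. A planned permutation test of the summed ratio to myeloid genes is not reported. Genes of the lists that were not tested are not reported here unless their reads are given.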

Additional observations from a re-analysis of the deposited data

Results flagged for a closer look

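Among 24 groups of 4 libraries examined for a library far from the others, 2 were flagged, and chance flags about 5% of groups. Both concern Cybb in the CCI contralateral library of animal 5, which had 2 reads of this gene. The log2 ratio of Cybb to Cyba was -7.01 there, and the log2 ratio of Cybb to the 6 myeloid reference genes was -10.3.

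The hemisphere difference was larger in CCI than in sham animals, by the test of that difference in edgeR, for 3 members: Cyba (2.31 on the log2 scale, higher on the injured side in 4 of 4 CCI animals), Ncf1 (1.60, 4 of 4) and Rac2 (2.28, 4 of 4). Cybb and Ncf4 were not called, though also higher on the injured side in 4 of 4. Of all genes, 4.84% were called in that direction. Of 12 oxidase partners tested, 6 were called higher and 1 lower. The difference was 1.92 for Vav1 (adjusted p = 0.0256), 1.58 for Hvcn1 (adjusted p = 0.0104), 1.49 for Dock2 (adjusted p = 0.00904), 1.37 for Syk (adjusted p = 0.00818), 1.11 for Nrros (adjusted p = 0.0163), 1.07 for Arhgdib (adjusted p = 0.00674) and -0.50 for Prkcb (adjusted p = 0.000429). Of all 14875 genes 445 were called lower. Of 12 tested enzymes that remove superoxide and peroxide 2 were called higher, Prdx1 with a difference of 0.57 (adjusted p = 0.000526) and Cat with 0.37 (adjusted p = 0.0435).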

How the results depend on the processing

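Of the member log2 fold changes under all alternatives, 541 kept their direction and side of the threshold, 8 passed it newly, 1 lost it and 5 changed sign. Over libraries left out, Ncf4 in the contralateral comparison ran from -0.021 (without CCI contralateral animal 1) to 0.34, and Cyba between sham hemispheres from -0.67 to 0.053 (without sham ipsilateral animal 6). The other reversals were 0.093, 0.17 and 0.093 for Cybb between sham hemispheres on log2(TPM + 1), log2(TPM + 0.1) and with a mean TPM of at least 1. The Cybb to Cyba ratio ran from -0.20 to 0.95 over libraries left out, and the ratio of the members to myeloid genes from 0.57 to 0.72. The members' ratio was 1.03 against Csf1r alone and 0.67 against Aif1 alone. For Cybb alone the ratio to the myeloid genes ran from 0.85 to 1.70 and for Ncf4 from -0.25 to 0.094. These ranges come from leaving out each CCI library, an alternative chosen after seeing the data. The causes were not tested.

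Members called in the difference of hemisphere effects numbered 3 to 5 over libraries left out, with 5 without CCI ipsilateral animal 2. The ipsilateral comparison called 1675 to 3405 genes over libraries left out (main 3352), lowest without sham ipsilateral animal 6, and that library also set the lowest count for the difference of hemisphere effects, 393 to 1457 (main 1165). That count was 721 on log2(TPM + 0.1) and 728 with a mean TPM of at least 1. The contralateral comparison called 14 genes, 106 without a filter, 31 by DESeq2, 1 by limma voom, 45 with only the groups compared, 1 with the animal as a random replicate block and 1 to 34 over libraries left out. The sham comparison called 1 gene, 26 without a filter, 0 on log2(TPM + 1), 3 on log2(TPM + 0.1), 0 with a mean TPM of at least 1, 22 with only the groups compared, 5 with a fixed replicate block and 0 to 8 over libraries left out.

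The replicate block changed no member's call other than that of Cybb in the difference of hemisphere effects, as a fixed effect only (adjusted p = 0.0141, against 0.128 as a random effect), and the fixed block could not be fitted for CCI against sham. Cybb there also had an adjusted p of 0.000845 without a filter and of 0.0259 to 0.0386 without CCI ipsilateral animals 1, 2 or 3 or CCI contralateral animal 3. With only the groups compared, members below the filter were not tested. Sham ipsilateral has 2 libraries, and 2 to 16 reads per library limit Cybb and Ncf4 outside injured tissue.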
